A study of Homo sapiens with 48 samples.

Results

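Induced p53 was compared with a control vector in A382 cells, in 4 of the study's 48 libraries: 2 of the doxycycline-inducible p53 vector and 2 of the control vector. They were chosen by their labels, and every gene with at least 1 FPKM in 2 or more of the 4 libraries was tested, which kept 12203 of 19102 genes. FPKM relates the sequenced fragments of a gene to its transcript length and to the size of the library. A382 is an established human glioblastoma cell line, grown here in DMEM with 10% fetal bovine serum. Both groups received doxycycline, the drug that switches on the inducible vector, and both were collected on day 2, so the drug itself is shared and the vector is what differs. The other 44 libraries were day 9 knockouts of subunits of the EP400/TIP60 chromatin complex, of H2AZ, or their non-targeting guides. Polyadenylated RNA was sequenced with a stranded kit. The p53 cells are called p53 libraries below and the control vector cells control libraries. Whether each line was a clone or a pool, and which p53 sequence the vector carried, is not given in the sources used here. The labels do not say that the 2 libraries of a group are separate cultures, and p-values therefore rest on a spread that may be technical.

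The protein p53 is a transcription factor that is kept low by the ubiquitin ligase MDM2, itself a p53 target, so that the pair forms a negative feedback loop. When p53 accumulates it binds a response element made of paired half-sites and switches on genes for cell cycle arrest, cell death, DNA repair and metabolism. Cell cycle genes fall along an indirect route: p53 raises the inhibitor p21 (CDKN1A), the pocket proteins lose their phosphates, and the DREAM complex then sits on E2F and CHR promoter elements of replication and mitosis genes. In glioblastoma the p53 pathway is often disabled.

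Read depth inferred from the steps between low values was close to equal, at 1 and 1.07 in the p53 libraries and 1.04 and 1.02 in the control libraries relative to the first p53 library. Over the tested genes, log2(FPKM + 1) correlated between replicates at r = 0.996 in the p53 libraries and 0.997 in the control libraries, and the SD of the difference between replicates was 0.152 and 0.141. More genes were seen in the p53 libraries: 11843 and 11853 genes reached 1 FPKM there, against 10937 and 10945 in the control libraries. Genes above 0 numbered 15843 and 15878 in the p53 libraries, against 14570 and 14598 in the control libraries. Because ubiquitous ribosomal protein genes are also at 0 in some libraries of this table, a 0 may be a failed estimate, and such genes are described only as listed at 0, with no fold change.

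The response was broad. Of 12203 tested genes, 10293 were called at an adjusted p under 0.05, which is 84.3%. Of these, 4591 were higher in the p53 libraries (37.6% of tested genes) and 5702 lower (46.7%). A change of at least 2-fold on the log2(FPKM + 1) scale was seen in 2395 genes that rose (19.6%) and 1325 that fell (10.9%), together 30.5%. The groups did not overlap for 11231 genes (92%). With this background a call alone says little about a gene, so sizes are given with the calls, and list counts are to be read against the shares of 37.6% higher and 46.7% lower. The median log2 change over all tested genes was -0.13. Among the 2441 genes with the lowest mean level the median was 0.30, and among the 2441 with the highest it was -0.25. The filter keeps weakly expressed genes that reached 1 FPKM in only 1 of the groups, and more of these did so in the p53 libraries: 1244 genes were at least 1 FPKM in both p53 libraries and under 1 in both control libraries, and 352 the other way.

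Many of the largest rises were genes nearly silent in the control libraries. LCE1C, a late cornified envelope gene of the skin barrier, was at 416 and 394 FPKM in the p53 libraries and listed at 0 in both control libraries. LCE1F, from the same family, was at 214 and 199 FPKM in the p53 libraries and likewise listed at 0 in both controls. The near-identical copies within this family make the assignment of reads among its members uncertain. PLK5, a polo-like kinase family member, was at 95.3 and 92.7 FPKM and WFDC5, a protease inhibitor-like protein, at 93.2 and 100.4 FPKM in the p53 libraries, and both were listed at 0 in the control libraries.

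CRYAB, the small heat shock protein alphaB-crystallin, reached 179 and 174 FPKM in the p53 libraries, against 0.399 and 0.196 FPKM in the control libraries, a log2 change of 7.10 ± 0.084 (± SE here and throughout, n = 2 per group, limma). PRAP1, a proline-rich acidic protein, changed by 6.77 ± 0.079, the protease cathepsin H (CTSH) by 6.34 ± 0.064 and the muscarinic receptor CHRM4 by 6.29 ± 0.068. TNNT3, a troponin subunit of fast skeletal muscle, was at 112 and 106 FPKM in the p53 libraries, against 0.151 and 0 FPKM in the control libraries. LSP1, a leukocyte actin-binding protein, was at 105 and 96.7 FPKM in the p53 libraries, against 0.112 and 0 FPKM in the control libraries. These genes were chosen among those whose groups do not overlap, so the separation is part of the choice. The smallest p-values in limma included those of LCE1C, LCE1F, PLK5 and CTSH. All of these genes were under 1 FPKM in both control libraries and passed the filter only through the p53 libraries. Their p-values are therefore not given as support.

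Among the largest falls, NPTX2, a neuronal pentraxin, stood at 4.44 and 3.64 FPKM in the p53 libraries, against 217 and 215 FPKM in the control libraries, and fell by 5.43 ± 0.078 on the log2 scale. PEG10, an imprinted gene derived from a retrotransposon, stood at 6.23 and 6.73 FPKM in the p53 libraries, against 206 and 208 FPKM in the control libraries, and fell by 4.80 ± 0.053. The largest falls were likewise chosen among genes whose groups do not overlap. NID2, a basement membrane nidogen, fell by 4.07 ± 0.057, INHBE, an activin subunit, by 3.98 ± 0.078, and APOE, the lipid carrier apolipoprotein E, by 3.86 ± 0.063. PDP1, the phosphatase that activates pyruvate dehydrogenase, fell by 3.83 ± 0.074, IGFBP2, an insulin-like growth factor carrier, by 3.68 ± 0.12 and NNMT, nicotinamide N-methyltransferase, by 3.61 ± 0.066. S100P, a calcium-binding protein, was at 0.252 and 0 FPKM in the p53 libraries, against 25.1 and 24.9 FPKM in the control libraries.

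**Figure D1:**
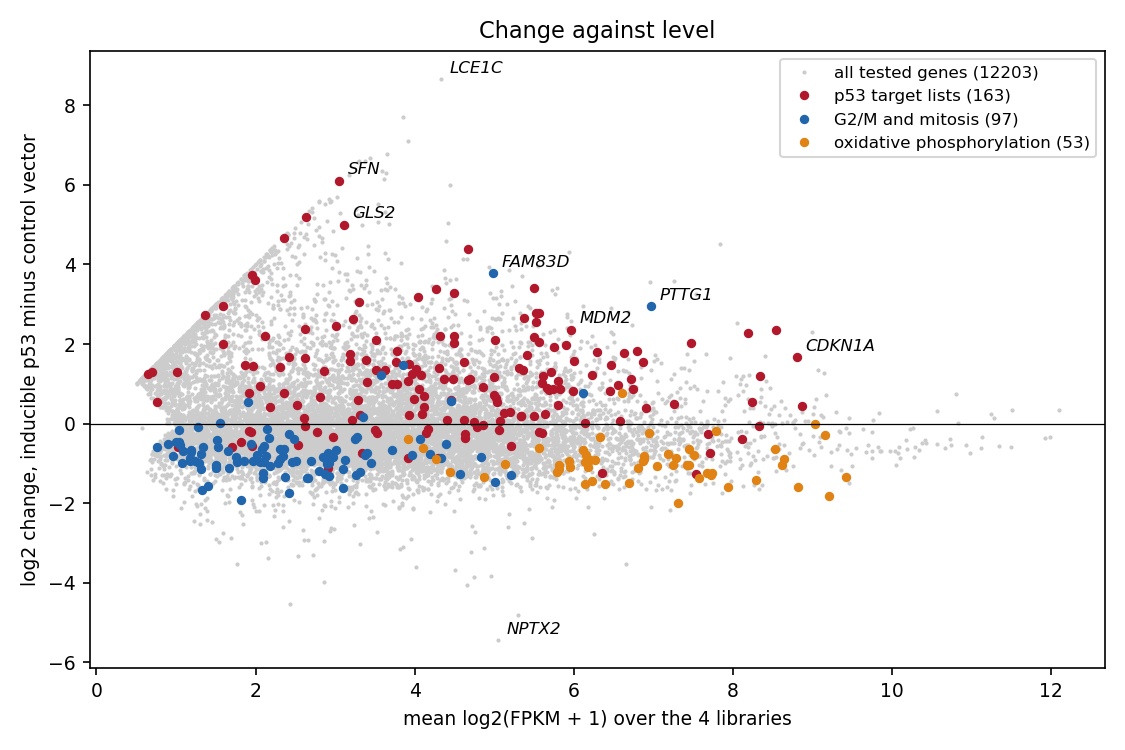
Each point is a tested gene, placed by its mean log2(FPKM + 1) over the 4 libraries (x axis) and its log2 change, inducible p53 minus control vector (y axis), with 163 genes of the p53 target lists in red, 97 G2/M and mitosis genes in blue and 53 oxidative phosphorylation genes in orange. The red points lie mostly above 0 (median 1.02) and the blue and orange points mostly below (medians -0.84 and -1.04), while PTTG1 and FAM83D stand out among the blue ones above 0.

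Lists of p53 targets were set beside this background. Across the 7 role lists, 163 of 171 listed genes were tested. Of these, 123 rose (75.5%, against 37.6% of all tested genes), 24 fell and 16 were not called. At least 2-fold, 84 rose (51.5%, against 19.6%) and 3 fell. Their median log2 change was 1.02, against -0.13 over all tested genes. Of the 9 noncoding p53 targets listed, 0 are in the table.

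In the feedback list, 8 of 12 tested genes rose (66.7%, against 37.6% of all tested genes), 1 fell and 3 were not called, with a median of 0.63. MDM2, the ubiquitin ligase that marks p53 for destruction, stood at 135 and 146 FPKM in the p53 libraries, against 27.8 and 25.3 FPKM in the control libraries, and rose by 2.36 ± 0.063 (adjusted p 7.5e-08). TP53INP1, a cofactor of p53 in stress, rose by 2.03 ± 0.066 and PHLDA3, which restrains AKT signalling, by 1.12 ± 0.059. The phosphatase PPM1D, which removes activating phosphates from p53, rose by less, 0.66 ± 0.082. CCNG1 (cyclin G1), a p53 target that recruits a phosphatase to MDM2, went against the list. It was at 113 and 125 FPKM in the p53 libraries, against 290.4 and 288 FPKM in the control libraries, and fell by 1.27 ± 0.055. ZMAT3, an RNA-binding p53 target, was at 25.3 and 27.1 FPKM in the p53 libraries, against 25.7 and 25.2 FPKM in the control libraries, and these values overlapped. MDM4, the partner of MDM2, missed the threshold at a log2 change of -0.22 ± 0.088.

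In the arrest list, 11 of 14 tested genes rose (78.6%, against 37.6%), 1 fell and 2 were not called. CDKN1A, which encodes the cyclin-dependent kinase inhibitor p21, stood at 822 and 777 FPKM in the p53 libraries, against 249.5 and 254 FPKM in the control libraries. All p53 values lay above all control values, with a log2 change of 1.66 ± 0.045 (adjusted p 7.83e-08). SFN (14-3-3 sigma), which holds CDK1 out of the nucleus, was at 71.1 and 65.1 FPKM in the p53 libraries and listed at 0 in both control libraries. RPRM (reprimo), a G2 arrest gene, was at 39.1 and 34.4 FPKM in the p53 libraries, against 0.0582 and 0 FPKM in the control libraries. The antiproliferative gene BTG2 rose by 2.11 ± 0.051, and E2F7, a repressor of E2F targets, by 1.16 ± 0.05. GADD45A, a growth arrest gene induced by DNA damage, was the 1 member that fell, by 0.27 ± 0.046, at 189 and 186 FPKM in the p53 libraries and 234 and 220.0 FPKM in the control libraries. Its paralog GADD45B rose by 1.39 ± 0.069.

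**Figure D2:**
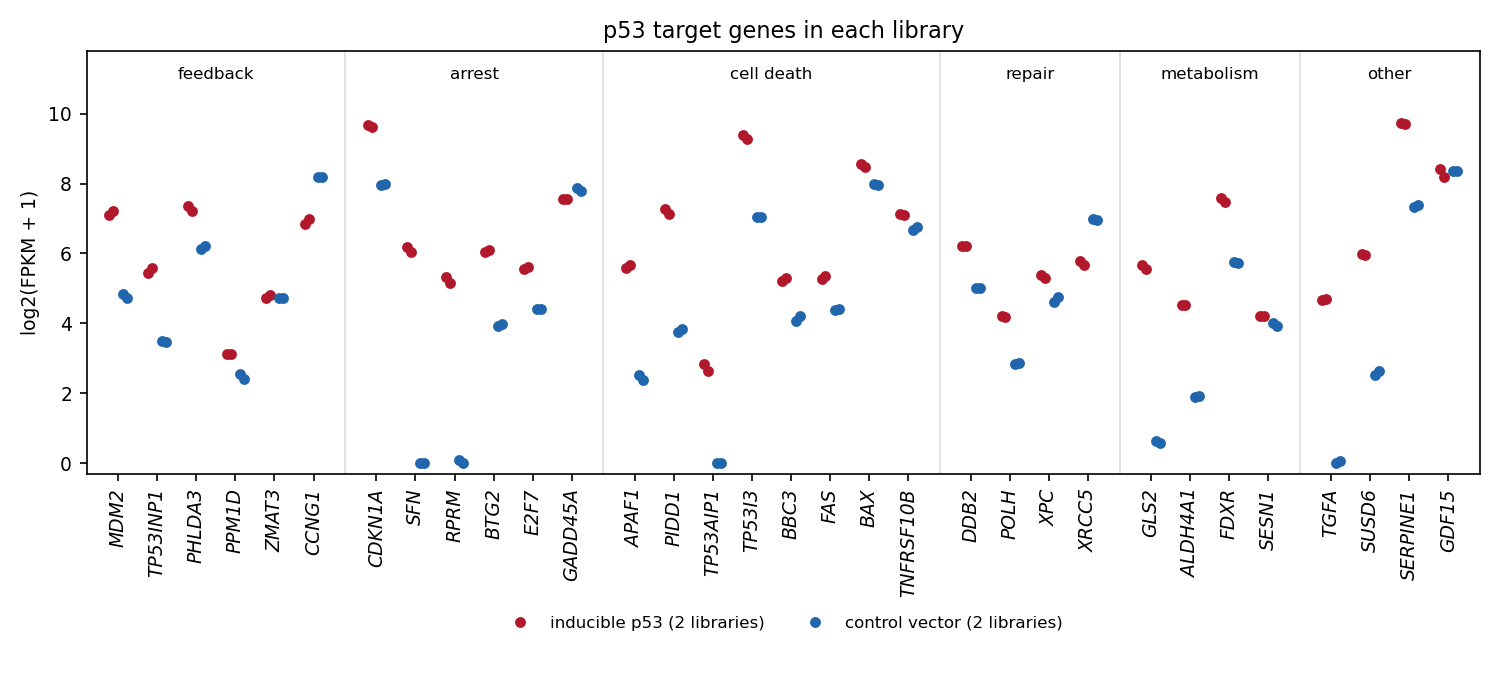
Each point is 1 library, inducible p53 in red and control vector in blue, with log2(FPKM + 1) on the y axis and genes grouped by role on the x axis. MDM2, CDKN1A and APAF1 have both red points above both blue points, CCNG1, GADD45A and XRCC5 have them below, and the colours overlap for ZMAT3 and GDF15.

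Of 25 tested cell death genes, 23 rose (92%, against 37.6% of all tested genes), 14 of them at least 2-fold, 1 fell and 1 was not called. APAF1, the adaptor that assembles caspase-9, was at 47.1 and 50.2 FPKM in the p53 libraries, against 4.77 and 4.18 FPKM in the control libraries, and rose by 3.18 ± 0.074. PIDD1, the scaffold of the caspase-2 platform, was at 154 and 139.8 FPKM in the p53 libraries, against 12.5 and 13.3 FPKM in the control libraries, and rose by 3.41 ± 0.063. The groups did not overlap for either gene, as for 92% of tested genes. TP53I3, a quinone oxidoreductase, rose by 2.29 ± 0.047, and PERP, a membrane protein of desmosomes, by 1.98 ± 0.05. TP53AIP1, a mitochondrial protein, was at 6.11 and 5.22 FPKM in the p53 libraries and listed at 0 in both control libraries.

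Other apoptotic genes rose by smaller amounts. The BH3-only gene BBC3 (PUMA) rose by 1.13 ± 0.067 and PMAIP1 (NOXA) by 0.83 ± 0.068. The pore-forming BAX rose by 0.54 ± 0.049 and BAK1 by 1.34 ± 0.07. The death receptor FAS rose by 0.92 ± 0.058, and the receptor TNFRSF10B (DR5) by 0.39 ± 0.045. The initiator caspase CASP10 rose by 2.01 ± 0.084 and the executioner CASP6 by 1.82 ± 0.072. STEAP3, a metalloreductase, was the 1 member that fell, by 0.25 ± 0.051.

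DNA repair targets were mixed. Of 12 tested, 6 rose (50%, against 37.6%), 4 fell (33.3%, against 46.7%) and 2 were not called, with a median of 0.15. DDB2, which recognises ultraviolet lesions, was at 73.6 and 73.3 FPKM in the p53 libraries, against 31.5 and 31.5 FPKM in the control libraries, and rose by 1.19 ± 0.044. The bypass polymerase POLH rose by 1.34 ± 0.063, the ligase LIG1 by 1.37 ± 0.059, the sliding clamp PCNA by 0.96 ± 0.05 and XPC, another lesion sensor, by 0.65 ± 0.064. XRCC5 (Ku80), which holds broken ends, fell by 1.25 ± 0.049.

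Metabolic and redox targets rose in 17 of 24 cases (70.8%, against 37.6%) and fell in 5. GLS2, the liver-type glutaminase, was at 50.2 and 46.1 FPKM in the p53 libraries, against 0.562 and 0.503 FPKM in the control libraries, a ratio of 90.4. ALDH4A1, a proline catabolism enzyme, rose by 2.63 ± 0.066, and FDXR, ferredoxin reductase, by 1.77 ± 0.051. The sestrins SESN1 and SESN2, which restrain mTORC1, rose by 0.23 ± 0.06 and 0.29 ± 0.061. In limma, the SESN1 call was lost without p53 replicate 1, p53 replicate 2 or control replicate 2 (adjusted p 0.0641, 0.0655 and 0.0622), and the SESN2 call without p53 replicate 1 or 2 (adjusted p 0.0742 and 0.0663). SLC7A11, the cystine transporter, fell by 0.87 ± 0.069. Among autophagy and membrane targets 16 of 21 rose (76.2%) and 4 fell. DRAM1, a lysosomal membrane protein, rose by 1.49 ± 0.062 and the autophagy kinase ULK1 by 1.39 ± 0.064. RPS27L, a ribosomal protein-like target, fell by 0.73 ± 0.048.

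The remaining direct targets gave 43 rises (76.8%, against 37.6%) and 8 falls among 56 tested. TGFA, a ligand of the EGF receptor, was at 24.5 and 24.9 FPKM in the p53 libraries, against 0 and 0.0366 FPKM in the control libraries. SLC4A11, a membrane transporter, rose by 4.39 ± 0.052, SERPINB5 (maspin) by 3.73 ± 0.08 and SUSD6, a membrane protein of the DNA damage response, by 3.38 ± 0.064. GDF15, a secreted stress cytokine that is a widely used p53 reporter, was at 342 and 291 FPKM in the p53 libraries, against 330.1 and 328 FPKM in the control libraries. Those values overlapped. Among p53 relatives and regulators 7 of 19 rose and 9 fell, which is 36.8% and 47.4%, close to the shares of all tested genes. TP73, a p53 paralog, was at 11.7 and 11.2 FPKM in the p53 libraries, against 0.108 and 0.146 FPKM in the control libraries. ATM, the kinase that activates p53 after DNA breaks, fell by 1.03 ± 0.076.

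Promoter sequence was read beside these changes. RefSeq windows from 250 bases before to 50 after each listed start (GRCh38.p14) were found for 9940 tested genes and 134 genes of the p53 role lists. The p53 consensus half-site, searched on both strands, was in 23 of the 134 (17.2%), against 7.73% of all tested genes with a window and 8.06% of all 27305 genes in the RefSeq table. Among the 23 with a half-site, 18 rose and 3 fell (median 0.96), and among the 111 without one, 83 rose and 17 fell (median 1.07). The share that rose was thus similar with and without a half-site in this window, and the difference was not tested. Paired half-sites with a spacer of at most 13 bases were in 4 tested genes, shown because they are all there were, with the half-sites in capitals. They are MCC at chr5:113488495-113488521 (minus strand), DDB2 at chr11:47214979-47214999 (plus), PTCHD4 at chr6:48111198-48111217 (minus) and DYNC2H1 at chr11:103109250-103109281 (plus). The site of DDB2 begins 6 bases after its start.
MCC: GGGCATGCTCcgttgtcAGGCAAGTTC
DDB2: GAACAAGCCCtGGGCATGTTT
PTCHD4: AGGCTTGCCCAGACTTGCCC
DYNC2H1: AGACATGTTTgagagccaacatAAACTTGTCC
Of these 4 genes, named because of their sites and not by size, MCC rose by 1.42 ± 0.066 and DDB2 by 1.19 ± 0.044. DYNC2H1, a cilium motor gene, fell by 0.39 ± 0.088, and PTCHD4, which p53 is known to switch on, had a log2 change of -0.17 ± 0.079 (adjusted p 0.0764). Elements outside these windows were not searched.

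**Figure D3:**
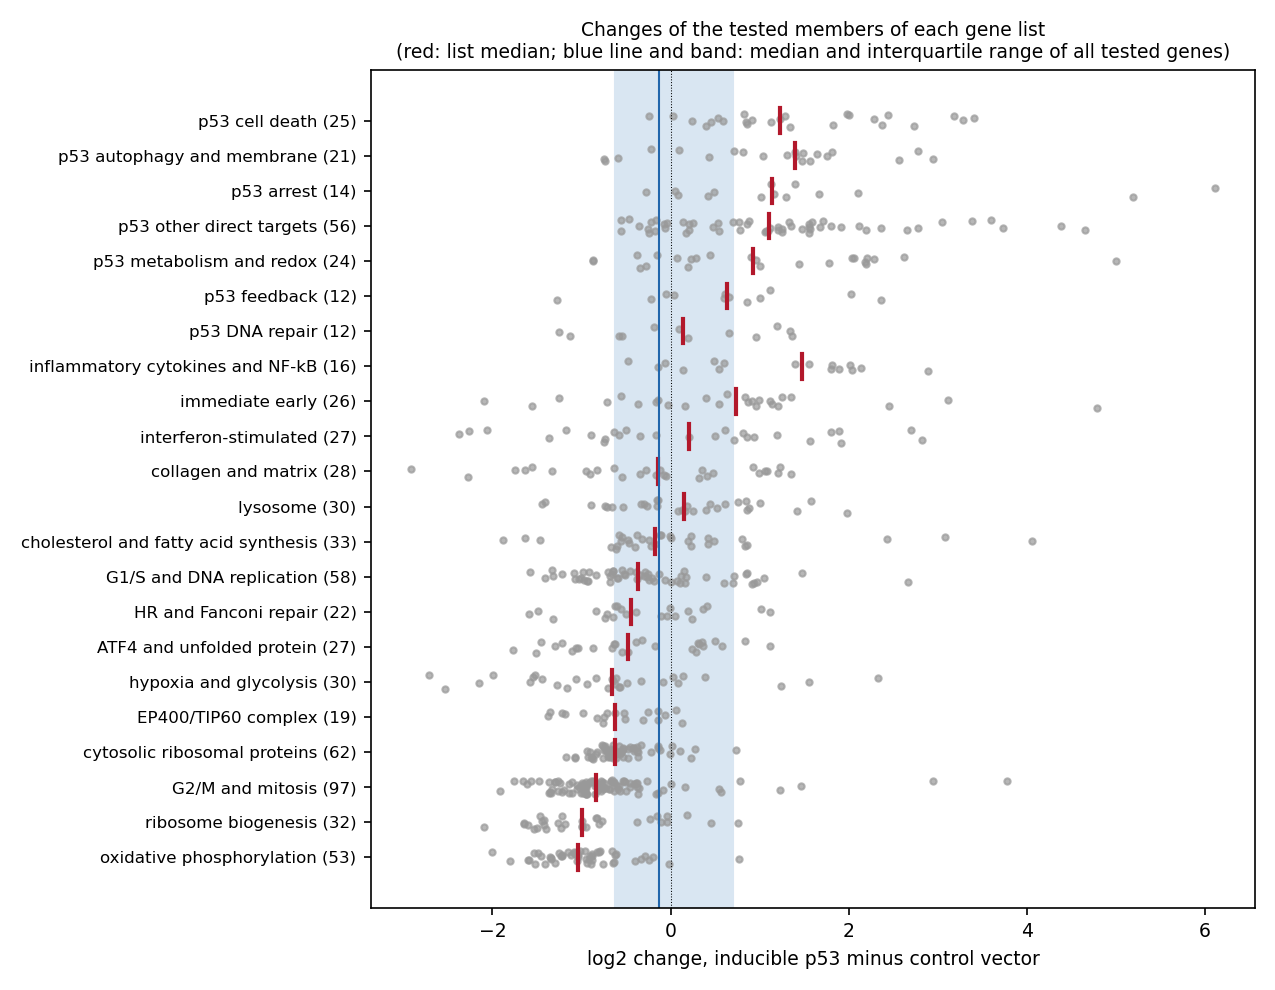
Each grey point is a tested gene, placed by its log2 change, inducible p53 minus control vector (x axis), within its gene list (y axis, tested members in brackets), with the list median in red and the median and interquartile range of all tested genes in blue. The p53 cell death, autophagy, arrest and other direct lists have medians above 1, the DNA repair list sits at 0.15, and oxidative phosphorylation lies lowest at -1.04.

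Mitotic genes fell almost as a group. Of 97 tested G2/M and mitosis genes, 85 fell (87.6%, against 46.7% of all tested genes), 7 rose and 5 were not called, with a median of -0.84. At least 2-fold, 26 fell (26.8%, against 10.9%). SKA3, a kinetochore protein, fell by 1.92 ± 0.11, CENPF, another kinetochore protein, by 1.76 ± 0.085, the checkpoint kinase TTK by 1.66 ± 0.11 and the cytokinesis scaffold ANLN by 1.61 ± 0.074. Cyclin-dependent kinase 1 (CDK1) was at 3.88 and 3.56 FPKM in the p53 libraries, against 10.2 and 10.5 FPKM in the control libraries, and fell by 1.27 ± 0.076. Its cyclin CCNB2 fell by 1.21 ± 0.087 and the mitotic kinase PLK1 by 1.14 ± 0.12. The groups of these 7 genes did not overlap, as for 92% of all tested genes. In bulk RNA, fewer cells in mitosis and less mitotic RNA per cell cannot be told apart.

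The 7 mitotic genes that rose are all named here, and KIF20A, BUB3, TACC3 and ESPL1 were chosen after their values were seen. PTTG1 (securin), the inhibitor of separase, was at 373 and 324 FPKM in the p53 libraries, against 43.3 and 44.9 FPKM in the control libraries, and rose by 2.95 ± 0.069. FAM83D, a spindle protein, was at 117 and 116 FPKM in the p53 libraries, against 7.84 and 7.26 FPKM in the control libraries, and rose by 3.78 ± 0.055. The p53 and control values of both genes were far apart, while reads of PTTG1 may be shared with near-identical copies. CENPM, a centromere protein, rose by 1.46 ± 0.10 and the mitotic kinesin KIF20A by 1.23 ± 0.077. The checkpoint protein BUB3, the spindle protein TACC3 and separase (ESPL1) rose by 0.78 ± 0.048, 0.57 ± 0.056 and 0.55 ± 0.093.

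The CHR element (TTTGAA, or TTCAAA on the other strand) lies near the start of many mitotic genes and is where DREAM and the MuvB complex bind. In the RefSeq windows it was in 57 of 82 G2/M genes with a window (69.5%), against 13.5% of tested genes and 18.2% of all genes in the RefSeq table. The CCAAT box (CCAAT or ATTGG) was in 75.6% of the G2/M genes, against 43.4% of tested genes, and both together in 53.7%, against 5.52%. Of the 79 CHR matches in G2/M windows, 54.4% lay within 100 bases before the start, against 27.4% of 1655 matches in all tested windows. In the sequences below, CHR and CCAAT matches are in capitals, and forms of the CHR element other than TTTGAA and TTCAAA were not searched. Shown are the 130 bases before the start of 4 falling genes with a CHR match and of PTTG1, which rose and holds none there. They are CCNB2 at chr15:59105016-59105145, PLK1 at chr16:23678759-23678888, CKS2, a CDK subunit gene, at chr9:89311065-89311194, BUB1B, a checkpoint kinase gene, at chr15:40160939-40161068 and PTTG1 at chr5:160421725-160421854, all on the plus strand of GRCh38.p14. The CHR element of CCNB2, PLK1 and CKS2 begins 29 bases before the start and that of BUB1B 23 bases before it.
CCNB2: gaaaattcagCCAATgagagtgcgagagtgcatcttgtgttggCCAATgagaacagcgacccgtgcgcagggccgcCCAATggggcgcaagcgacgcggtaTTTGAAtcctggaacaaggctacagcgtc
PLK1: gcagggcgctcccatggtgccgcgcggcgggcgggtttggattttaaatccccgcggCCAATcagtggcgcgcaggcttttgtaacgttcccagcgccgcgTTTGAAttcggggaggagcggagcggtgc
CKS2: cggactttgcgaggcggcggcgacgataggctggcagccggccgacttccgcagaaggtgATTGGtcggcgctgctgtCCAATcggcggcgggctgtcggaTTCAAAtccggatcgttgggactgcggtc
BUB1B: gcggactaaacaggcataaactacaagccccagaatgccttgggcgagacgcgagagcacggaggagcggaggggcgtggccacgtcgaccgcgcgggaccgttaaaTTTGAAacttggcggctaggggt
PTTG1: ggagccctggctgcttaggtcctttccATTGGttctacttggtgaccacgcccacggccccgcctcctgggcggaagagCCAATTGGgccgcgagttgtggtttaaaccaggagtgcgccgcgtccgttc
CKS2 fell by 1.47 ± 0.068 and BUB1B by 1.36 ± 0.093.

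Mitotic genes with and without the CHR element had similar medians. Of 57 with the element, 53 fell and 1 rose, with a median of -0.85, and 19 (33.3%) fell at least 2-fold. Of 25 without it, 20 fell and 3 rose, with a median of -0.84, and 4 (16%) fell at least 2-fold. These differences were not tested. Outside the cell cycle and repair lists, 47.7% of 1279 genes with the element fell, against 47.3% of 8514 without it. Genes without the element here are those without TTTGAA or TTCAAA in the window, as other forms were not searched. A match is a description of letters and was not tested as a binding site.

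**Figure D4:**
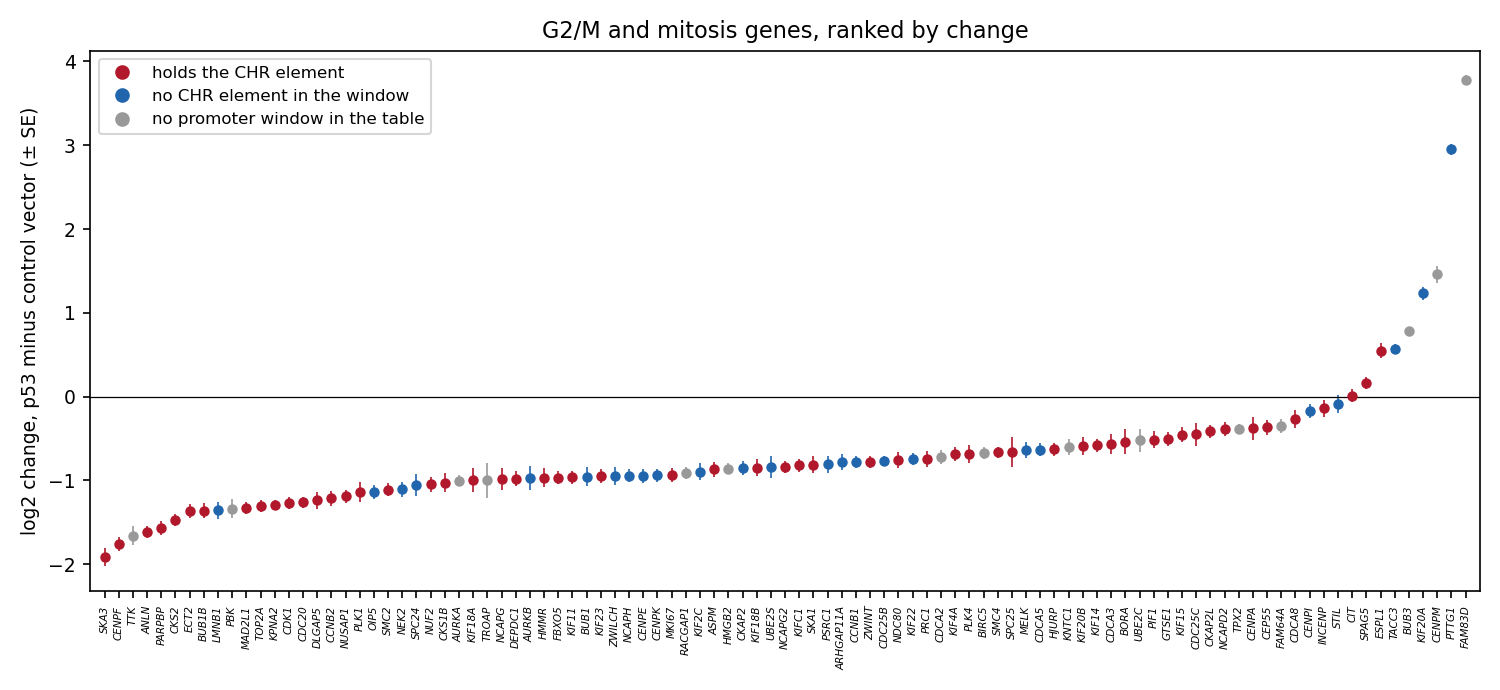
The 97 tested G2/M and mitosis genes are ranked by log2 change, inducible p53 minus control vector (y axis, points with SE), in red where the promoter window holds the CHR element, in blue where it does not and in grey where no window was matched. The red points reach down to -1.92 and the blue points to -1.36, and PTTG1 and FAM83D lie far above 0.

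Of the 14 DREAM and MuvB components themselves, 5 were higher (35.7%, against 37.6% of all tested genes) and 9 lower (64.3%, against 46.7%). The MuvB subunit LIN37 rose by 2.04 ± 0.09 and LIN9 by 1.32 ± 0.10, while E2F5, a repressive E2F, fell by 2.16 ± 0.093 and MYBL2, the activator of late cell cycle genes, by 1.13 ± 0.11. FOXM1, which drives mitotic transcription, fell by 0.45 ± 0.074. The pocket proteins RB1 and RBL2 (p130) rose by 1.30 ± 0.06 and 1.33 ± 0.078, while the third, RBL1 (p107), fell by 0.50 ± 0.079. The CDK inhibitor CDKN1C (p57) rose by 1.90 ± 0.10, and CDKN2C (p18) was at 9.89 and 9.24 FPKM in the p53 libraries, against 68.8 and 68.5 FPKM in the control libraries, and fell by 2.72 ± 0.055.

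Replication genes went both ways. Of 58 tested G1/S genes, 31 fell (53.4%, against 46.7%), 13 rose (22.4%, against 37.6%) and 14 were not called, with a median of -0.36. The clamp loader subunit RFC3 fell by 1.58 ± 0.13, UHRF1, which maintains DNA methylation, by 1.41 ± 0.10 and MCM3, part of the replicative helicase, by 1.33 ± 0.076. CDT1, the licensing factor, was at 14.9 and 15.9 FPKM in the p53 libraries, against 1.79 and 1.40 FPKM in the control libraries, and rose by 2.67 ± 0.10. RRM1, the large subunit of ribonucleotide reductase, rose by 1.47 ± 0.059. The E2F element (TTTGGCGC or TTTCCCGC, both strands) was in 45.8% of 48 G1/S windows, against 4.51% of tested genes. Of 22 tested homologous recombination and Fanconi genes, 12 fell (54.5%, against 46.7%) and 4 rose (18.2%, against 37.6%).

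Respiratory chain and translation genes were lower almost throughout. Of 53 oxidative phosphorylation genes, 51 fell (96.2%, against 46.7% of all tested genes) and 28 did so at least 2-fold, with a median of -1.04. ATP5B, the catalytic beta subunit of ATP synthase, was at 315 and 316 FPKM in the p53 libraries, against 1104 and 1107 FPKM in the control libraries, and fell by 1.81 ± 0.039. ATP5G1, a subunit of its rotor ring, fell by 2.00 ± 0.069. SDHA, the succinate dehydrogenase flavoprotein, was the 1 riser, at 0.77 ± 0.047. The CHR element was in 0 of 43 windows of these genes. Of 62 cytosolic ribosomal protein genes, 55 fell (88.7%, against 46.7%), 3 of them at least 2-fold, with a median of -0.62. Of 32 ribosome biogenesis genes, 26 fell (81.2%) with a median of -0.996. MYC, the growth transcription factor, fell by 2.09 ± 0.056. Of the 2441 tested genes with the highest mean level 56% fell.

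Hypoxia and glycolysis genes fell in 21 of 30 cases (70%, against 46.7% of all tested genes) and rose in 5, with a median of -0.65. HK2, the hexokinase that commits glucose to glycolysis, fell by 2.71 ± 0.064, ALDOC, aldolase C, by 2.14 ± 0.058, PDK1, a brake on pyruvate dehydrogenase, by 1.99 ± 0.081 and LDHA, lactate dehydrogenase A, by 1.54 ± 0.04. The regulatory enzymes PFKFB4 and PFKFB3, which raise fructose-2,6-bisphosphate, rose by 2.33 ± 0.052 and 1.55 ± 0.058. In the ATF4 and unfolded protein list, 17 of 27 fell (63%, against 46.7%) and 10 rose (37%, against 37.6%). In the cholesterol and fatty acid list, 16 of 33 fell (48.5%) and 11 rose (33.3%), close to the shares of all tested genes. The regulator SREBF1 fell by 1.88 ± 0.056 and the desaturase SCD by 1.63 ± 0.058.

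Of 16 cytokine and NF-kB genes, 12 rose (75%, against 37.6%), 9 at least 2-fold, and 1 fell, with a median of 1.47. The chemokine CCL2 was at 236 and 246 FPKM in the p53 libraries, against 33.1 and 30.1 FPKM in the control libraries, and rose by 2.90 ± 0.057. The cytokine IL1B rose by 2.14 ± 0.15, the transcription factor NFKB1 by 2.04 ± 0.061 and the chemokine CXCL8 by 2.01 ± 0.059. Interferon-stimulated genes went both ways, with 14 of 27 higher (51.9%, against 37.6%) and 12 lower (44.4%, against 46.7%). IRF1 rose by 2.82 ± 0.063 and OAS1, an antiviral enzyme, by 2.70 ± 0.094, while the antiviral SAMD9 fell by 2.38 ± 0.078 and IFITM2 by 2.26 ± 0.065. Of 15 MHC class I and antigen processing genes, 10 fell (66.7%, against 46.7%) and 3 rose. The peptide transporter TAP1 rose by 1.32 ± 0.044, and the peptide-trimming enzymes ERAP2 and ERAP1 by 0.92 ± 0.054 and 0.43 ± 0.064. Reads of the class I genes are uncertain between near-identical members of the family. Immediate early genes rose in 16 of 26 cases (61.5%, against 37.6%) and fell in 8, with FOS at 18.8 and 18.4 FPKM in the p53 libraries, against 1.17 and 1.35 FPKM in the control libraries.

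Growth factors, their binding proteins and their receptors moved in both directions. Of 26 tested, 17 rose (65.4%, against 37.6%) and 7 fell. IGFBP3, a carrier of insulin-like growth factors and a known p53 target, rose by 3.28 ± 0.07, and BMP2, a bone morphogenetic protein, by 3.23 ± 0.091. Of 28 collagen and matrix genes, 11 rose (39.3%) and 14 fell (50%), close to the shares of all tested genes. Periostin (POSTN) fell by 2.91 ± 0.071, tenascin C (TNC) by 1.74 ± 0.047 and COL1A1 by 1.63 ± 0.041, while fibronectin (FN1) rose by 1.23 ± 0.045 and versican (VCAN) by 1.36 ± 0.044.

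Markers of the cell line and of other cell types were read beside these groups. Of 15 tested genes of glioma and neural progenitor identity, 7 rose (46.7%, against 37.6%) and 6 fell (40%, against 46.7%). NES (nestin), a neural progenitor filament, was at 1.88 and 1.55 FPKM in the p53 libraries, against 8.75 and 8.53 FPKM in the control libraries, and SOX2, a stem cell factor, fell by 0.57 ± 0.062. The hyaluronan receptor CD44 was at 239 and 245 FPKM in the p53 libraries, against 118 and 118 FPKM in the control libraries, and rose by 1.03 ± 0.04, and the integrin subunit ITGA6 rose by 1.25 ± 0.048. VIM, CD44, SOX9, EGFR and SOX2 were expressed in all 4 libraries, while GFAP, an astrocyte filament, and OLIG2, a factor of the oligodendrocyte lineage, were at or near 0. Summed macrophage and microglia markers were 58.4 and 56.7 FPKM in the p53 libraries, against 11.1 and 9.78 FPKM in the control libraries. Of these 10 markers 4 were higher: CD68, TYROBP, ITGAM and C1QB. CD68 was at 25.2 and 25.6 FPKM in the p53 libraries, against 10.1 and 8.89 FPKM in the control libraries. TYROBP was at 25.1 and 23.5 FPKM in the p53 libraries, against 0.214 and 0 FPKM in the control libraries. The other 6, PTPRC, AIF1, CD14, CSF1R, CX3CR1 and C1QA, were under 1 FPKM in all libraries. Summed endothelial markers were 6.30 and 6.59 FPKM in the p53 libraries, against 0.878 and 0.660 FPKM in the control libraries. Of these 7 markers 2 were higher, VWF and ESAM, and PECAM1, CDH5, KDR and CLDN5 were at or near 0 in all libraries. Summed fibroblast markers were 329 and 325 FPKM in the p53 libraries, against 782 and 804 FPKM in the control libraries. Of these 8 markers 4 were lower and 1, FAP, was higher, while DCN and LUM were at or near 0. The part of these marker changes in the immune and matrix lists was not tested.

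Subunits of the EP400/TIP60 complex, the target of the study's knockouts, fell or were not called. Of 19 tested, 15 fell (78.9%, against 46.7% of all tested genes) and 4 were not called, with a median of -0.62. ACTL6A, an actin-like subunit, fell by 1.38 ± 0.051, MORF4L2, a chromodomain paralog subunit, by 1.35 ± 0.042, and the AAA ATPases RUVBL2 and RUVBL1 by 1.22 ± 0.053 and 1.18 ± 0.049. BRD8, the bromodomain subunit, was at 20.1 and 17.6 FPKM in the p53 libraries, against 20.2 and 19.3 FPKM in the control libraries, and these overlapped. The scaffold EP400 and the acetyltransferase KAT5 (TIP60) missed the threshold, at 0.13 ± 0.08 and 0.06 ± 0.11. H2AFZ, a gene of the H2A.Z variant that the complex deposits, fell by 1.44 ± 0.044.

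Knockout of BRD8 (4 libraries, 2 for each of 2 guides, pooled, against 2 of the non-targeting guide sgNeg1) and of RUVBL2 (2 libraries of 1 guide, against 2 of sgNeg3) gave comparisons that share no control with p53 induction, so the difference between responses was tested directly. They were collected on day 9 rather than day 2, and the BRD8 section of the table is on a smaller FPKM scale, so the added pseudocount shrinks its changes more. The 4 BRD8 libraries were fitted as 1 group with no term for the guide. The test thus treats libraries of different guides as replicates, which limits every difference from BRD8 knockout given below. Against BRD8 knockout, 6323 of 8249 genes tested in both differed (76.7%), 28.3% being higher under p53 induction and 48.3% lower. Against RUVBL2 knockout, 8041 of 10641 differed (75.6%), 32.4% higher and 43.2% lower under p53 induction. Of the p53 role genes tested in both, 78 of 124 were higher under p53 induction than under BRD8 knockout and 20 lower, and 80 of 148 were higher than under RUVBL2 knockout and 37 lower. Their median log2 change was 0.87 under p53 induction and 0.05 under BRD8 knockout for the first set, and 0.94 under p53 induction and 0.26 under RUVBL2 knockout for the second.

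CDKN1A changed by 1.66 under p53 induction, against 0.38 under BRD8 knockout and 1.07 under RUVBL2 knockout, and both differences passed the test. MDM2 changed by 2.36 under p53 induction, against 0.77 under BRD8 knockout and 1.08 under RUVBL2 knockout, and both differences passed. APAF1 changed by 3.18 under p53 induction, against -0.53 under BRD8 knockout and -0.26 under RUVBL2 knockout, and both differences passed the test. GDF15 changed by -0.06 under p53 induction, which was not called, against 0.92 under BRD8 knockout and 2.19 under RUVBL2 knockout. The differences of -0.98 and -2.25 both passed. Its starting level differed between the comparisons, whose sections were normalized separately. It was 330.1 and 328 FPKM in the control vector libraries, against means of 2.48 FPKM in sgNeg1 and 15.3 FPKM in sgNeg3. GADD45A changed by -0.27 under p53 induction, against 1.17 under BRD8 knockout and 1.17 under RUVBL2 knockout. It was at 234 and 220.0 FPKM in the control vector libraries, against means of 23.9 FPKM in sgNeg1 and 84.7 FPKM in sgNeg3. For FAS the change was 0.92 under p53 induction, against 0.21 under BRD8 knockout and 1.01 under RUVBL2 knockout. The difference of 0.71 ± 0.10 from BRD8 knockout passed, and that of -0.09 ± 0.10 from RUVBL2 knockout did not.

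Mitotic genes were lower in all 3 responses by median. The median was -0.83 under p53 induction and -0.60 under BRD8 knockout over 90 genes, and -0.84 under p53 induction and -1.26 under RUVBL2 knockout over 97 genes. The difference from BRD8 knockout missed the threshold for 50 of the 90, whereas 76.7% of all genes tested in both differed. Of the 97, 62 were higher under p53 induction than under RUVBL2 knockout, against 32.4% of all genes tested in both. PTTG1 changed by 2.95 under p53 induction, against -1.33 under BRD8 knockout and -1.20 under RUVBL2 knockout. Oxidative phosphorylation genes, with a median of -1.04 under p53 induction, had medians of 0.14 under BRD8 knockout and 0.02 under RUVBL2 knockout. Of the 53, 48 and 47 were lower under p53 induction, against 48.3% and 43.2% of all genes tested in both.

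**Figure D5:**
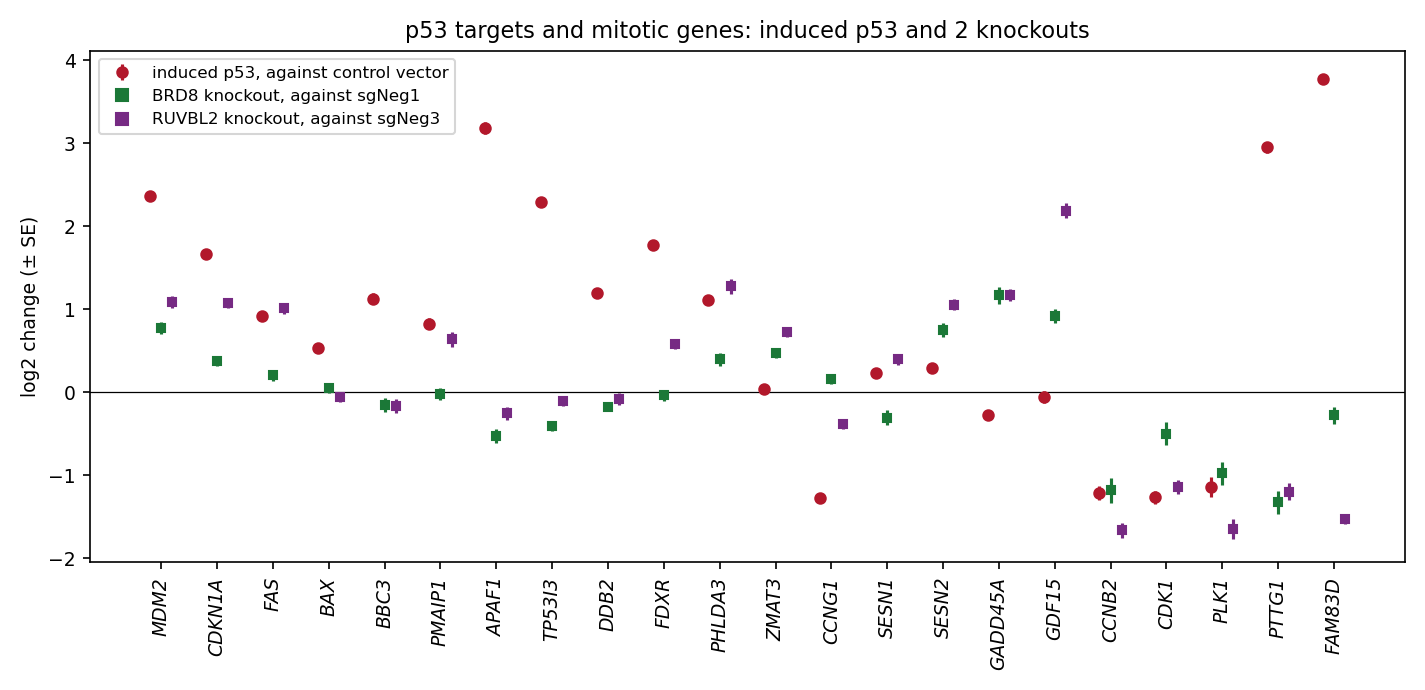
Log2 changes with SE (y axis) are given for 22 p53 target and mitotic genes (x axis) under induced p53 (red circles), BRD8 knockout (green squares) and RUVBL2 knockout (purple squares), each against its own controls. APAF1, TP53I3 and DDB2, like PTTG1 and FAM83D, lie above 0 in red and below 0 in green and purple. DDB2 was not called under RUVBL2 knockout, at -0.09 ± 0.07. GADD45A and GDF15, the latter not called under induced p53, lie below 0 in red and above 0 in green and purple.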

How the data were processed

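The authors deposited 1 table of FPKM values for 19102 genes, with no counts and no coordinates. TopHat2, Cufflinks, Cuffdiff and the hg19 build are named, with no versions or roles, per the submitters' processing notes. The table has 5 sections normalized separately, so tests of p53 induction stayed within its 4 libraries, and each knockout was set against the controls of its own section. Column names gave the library of each column, and 0 columns were left over. Values were analysed as log2(FPKM + 1), for genes with at least 1 FPKM in 2 or more of the 4 libraries. limma 3.58.1 in R 4.3.3 was used (lmFit, then eBayes with trend), with two-sided p-values adjusted by Benjamini-Hochberg across every tested gene and called under 0.05. The pseudocount understates changes of weakly expressed genes, and FPKM values are relative to the rest of each library. The fit was tested on simulated data. The libraries, the 32 gene lists and the genes named were chosen with earlier results of these data known. Genes named were CDKN1A and MDM2, the 10 largest rises and falls (a mean of at least 5 FPKM in the higher group, groups not overlapping), the 5 smallest p, members of the p53 lists, and for each other list members of large change, up to 3 against the majority, and defining members; some genes this rule selects are not reported here. Whether counting used strand is not given in the sources used here. Promoter windows and gene order came from RefSeq (GRCh38.p14). The labels name no batch. Alternatives varied the pseudocount, filter, scaling and variance model, left out each library and added a replicate block.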

Additional observations from a re-analysis of the deposited data

How the results depend on the processing

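The number of called genes stayed within 1.5 times its value under every alternative except a test against a minimum change. It was 10201 with a pseudocount of 0.1, 11539 of 16819 without the filter, 7841 of 8980 at 5 FPKM, and 10475 after quantile normalization. Testing for a log2 change above 0.5 left 5803 called genes, 2716 of them lower. Without each library in turn the count ran between 9326 and 9821. The replicate numbers were only shared labels: replicate differences correlated at 0.042 between the groups over 12203 genes, and the replicate block gave 10263 calls. Of the calls, 44.6% were higher, and between 40% and 53.2% under the alternatives, as quantile normalization moved the median of all genes to -0.22. Against BRD8 knockout, the 6323 differing genes became 10622 without the filter and 3212 at 5 FPKM.

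The genes that changed direction were ones the test had not called. After centring on the median, ZMAT3 was at -0.016, and after quantile normalization it was at -0.014 and GDF15 at 0.083. Leaving out each library in turn, ZMAT3 ran between -0.010 and 0.087, GDF15 between -0.18 and 0.056, BRD8 between -0.16 and 0.029, and KAT5 between -0.090 and 0.21. MDM4 and PTCHD4, not called in the report, were called lower after centring on the median (-0.27 and -0.23), after quantile normalization (-0.46 and -0.30) and without the variance trend (-0.22 and -0.17), and GDF15 without p53 replicate 1 (-0.18). The GADD45A call was lost after quantile normalization (-0.051). In the test for a log2 change above 0.5, calls of named genes with smaller changes were also lost. Among them were BAX, PPM1D, XPC, TNFRSF10B, STEAP3, SESN1, SESN2 and GADD45A. Outside the p53 lists, FOXM1, RBL1, SOX2, TACC3, ESPL1, ERAP1 and DYNC2H1 lost theirs there too. With 2 libraries per group, small differences rest on few degrees of freedom, and genes near 1 FPKM rest on few fragments.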

Other observations

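Gene families were picked after their values were seen, so their counts are descriptions, beside 37.6% of all tested genes higher. Members under 1 FPKM in both control libraries could pass the filter only by being higher in the p53 libraries. The rise of such members was fixed by the filter, and PLXNA4, PLXNC1, SEMA3F, SEMA3G and JAG2 are among them. Among plexins, receptors of semaphorins, 8 of 9 rose and 1 fell. PLXNB2 and PLXNB3 are also in the autophagy and membrane list above. PLXNA4 was at 11.3 and 10.9 FPKM in the p53 libraries, against 0.0409 and 0.0409 FPKM in the control libraries. Of 6 tested class 3 semaphorins, ligands of this receptor system, 3 rose, 2 fell (SEMA3A and SEMA3D) and 1 was not called. Of the 6 tested Notch receptors and ligands, 4 rose and 1 fell, and NOTCH1 is also in the list of other direct targets. The ligand JAG2 was at 61.7 and 53.9 FPKM in the p53 libraries, against 0.133 and 0.136 FPKM in the control libraries, and NOTCH3 rose by 3.39. All 5 tested cytochrome P450 4F genes rose, with CYP4F12 at 53.9 and 51.7 FPKM in the p53 libraries, against 0.123 and 0.0953 FPKM in the control libraries. These copies are near-identical and the assignment of reads among them is uncertain. CYP4F2, CYP4F8, CYP4F11 and CYP4F12 were under 1 FPKM in both control libraries, so their rise was fixed by the filter. Of 5 tested netrins and UNC5 receptors 4 rose and 0 fell. The risers, NTN1, UNC5A, UNC5B and UNC5C, were likewise under 1 FPKM in both control libraries, so their rise was fixed by the filter. Of 19 tested replication-dependent histone genes, out of 67 in the table, 13 rose and 3 fell, as measured in polyadenylated RNA only.

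In all, 223 genes were at 1 FPKM or more in both p53 libraries and listed at 0 in both control libraries, against 3 genes the other way: ATP1B2, FGF21 and RLN2. Beside those named above, the highest were PROKR1, a G-protein-coupled receptor, at 46.2 and 48.0 FPKM, TNNI2, a troponin subunit, at 43.5 and 39.7 FPKM, and CST11, a cystatin, at 42.2 and 37.1 FPKM in the p53 libraries.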
